A study of Mus musculus with 8 samples.

Results

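The skin barrier lipid synthesis genes are 37 mouse genes whose products make, modify, transport or break down the lipids that seal the cornified layer of the epidermis. They were chosen by name for this function, out of 26180 annotated genes, and were described by their listed peaks. A promoter was the 1 kb before a transcription start site (TSS) together with the 100 bp after it, and the gene body was the rest of the annotated transcripts. All 37 genes were found in the annotation. The peaks came from total epidermis, separated from the back skin of newborn wild-type mice (postnatal day 0.5), in which the histone acetyltransferase MOF was mapped by ChIPseq and Rfx2, H3K4me3 and H3K27Ac were mapped by Cut&Run. All groups shared this tissue, age and genotype; they differed in the antibody, and MOF also in the assay and in its single-end reads. No treated or mutant sample was among them, and the labels do not say how many animals went into a library. Of 8 libraries for 6 antibodies, 4 peak lists were used, 1 per antibody. The labels tie the H3K4me3 list to the repeat library, although the list is not named as one, so it may describe either of the H3K4me3 libraries. With 1 list per antibody there was no replicate error and no test between conditions, and the intervals given with shares are exact 95% binomial intervals that cover counting error over genes only.

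The outermost layers of the epidermis are kept watertight by ceramides, cholesterol and free fatty acids that are packed into lamellar bodies and released between the cornifying cells. The most specialized of these lipids is acylceramide, in which linoleate is linked to the end of an ultra-long-chain fatty acid held by a ceramide, and mutations in the genes of its synthesis cause ichthyoses. The proteins and marks mapped here report on different things. MOF acetylates lysine 16 of histone H4, Rfx2 is a transcription factor known for X-box elements in ciliary gene promoters, H3K4me3 marks promoters that are open to transcription, and H3K27Ac marks active promoters and enhancers. For the counts below the genes were split by general knowledge into 17 assigned to cornifying epithelia and 20 assigned to many tissues. The assignment was not checked against expression, and genes of the first group may also work in other tissues.

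Sequences immediately upstream of the TSS are shown for 9 genes that stand for the patterns described below, as the RefSeq promoter sequences of GRCm38.p6 give them. The serine palmitoyltransferase subunit genes were Sptlc1 (chr13:53377362-53377461, minus strand), Sptlc2 (chr12:87388356-87388455, minus strand) and Sptlc3 (chr2:139493813-139493912, plus strand). The sphingolipid desaturase genes were Degs1 (chr1:182282196-182282295, minus strand) and Degs2 (chr12:108702307-108702406, minus strand). The ceramide synthase gene Cers3 (chr7:66743404-66743503, plus strand) and the ceramidase gene Acer1 (chr17:56982127-56982226, minus strand) had marked promoters, and Alox12b (chr11:69156972-69157071, plus strand) and Sdr9c7 (chr10:127898435-127898534, plus strand) had no listed peak there. Each stretch is the 100 bases before a TSS, overlaps no annotated exon and is written 5′ to 3′ on the gene's strand, with CG dinucleotides in capitals. The Degs1 stretch lies before the more downstream of its 2 TSSs, in an intron of the longer transcript.
Sptlc1: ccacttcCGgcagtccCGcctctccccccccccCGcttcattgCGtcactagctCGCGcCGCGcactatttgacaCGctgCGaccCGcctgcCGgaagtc
Sptlc2: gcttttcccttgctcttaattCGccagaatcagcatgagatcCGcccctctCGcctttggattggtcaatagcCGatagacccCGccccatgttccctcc
Sptlc3: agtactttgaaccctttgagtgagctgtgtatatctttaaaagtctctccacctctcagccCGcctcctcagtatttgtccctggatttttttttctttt
Degs1: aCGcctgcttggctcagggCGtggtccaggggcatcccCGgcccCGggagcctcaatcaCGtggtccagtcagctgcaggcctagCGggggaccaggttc
Degs2: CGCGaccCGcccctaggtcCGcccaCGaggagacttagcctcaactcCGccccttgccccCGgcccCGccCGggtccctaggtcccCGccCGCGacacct
Cers3: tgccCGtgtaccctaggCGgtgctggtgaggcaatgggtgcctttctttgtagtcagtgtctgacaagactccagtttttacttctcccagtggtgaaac
Acer1: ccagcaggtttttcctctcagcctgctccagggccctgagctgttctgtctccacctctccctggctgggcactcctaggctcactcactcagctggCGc
Alox12b: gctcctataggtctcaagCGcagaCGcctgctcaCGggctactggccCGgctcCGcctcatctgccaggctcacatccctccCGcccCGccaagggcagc
Sdr9c7: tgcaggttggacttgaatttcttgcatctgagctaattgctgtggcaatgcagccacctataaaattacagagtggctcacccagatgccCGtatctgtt
The Sptlc1 and Degs2 stretches each hold 12 CG dinucleotides, against 1 each in Sptlc3, Acer1 and Sdr9c7. The stretch of Sdr9c7 contains the TATA box letters TATAAA.

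Before the genes were read, the tissue was checked on markers. Of 7 epidermal markers found in the annotation, Krt5, Krt14 and Trp63 had H3K4me3 at the promoter, at fold enrichments of 3.51, 3.98 and 3.29, and Krt14 alone of the 7 also had H3K27Ac and MOF. Over all genes H3K4me3 was at 54.0% and H3K27Ac at 44.1%, so these markers did not set the epidermis apart. Krt1, Krt10, Lor and Ivl, which mark the differentiated layers, had no peak of any list at the promoter, although these layers were in the tissue. A promoter without a listed peak therefore does not show that the mark was absent. Markers of other cell types were read in the same way. H3K4me3 was listed at 2 of 4 melanocyte markers, 1 of 4 leukocyte markers, 2 of 4 dermal fibroblast markers, 1 of 3 endothelial markers, 1 of 3 sebocyte markers and 2 of 3 markers of neurons, a cell type that is not in the sample, so H3K4me3 at a marker does not show that its cell type was present. Where it was listed at these markers, its height ran from 4.96-fold (Mlana) to 12.4-fold (H2-Ab1), above the epidermal markers. H3K27Ac was at 1 of 4 melanocyte, 1 of 3 sebocyte, 0 of 4 fibroblast, 0 of 3 endothelial, 0 of 4 leukocyte and 0 of 3 neuronal markers, and MOF at 2 of 4 fibroblast and 1 of 4 leukocyte markers. The part of other cells in the results below was not tested.

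To see how much of the barrier lipid pathway was marked at its promoters, the 4 lists were set on the 37 genes. H3K4me3 was listed at 30 of 37 promoters (81.1%, 95% CI 64.8 to 92.0), against 54.0% of all annotated genes and 60.7% of protein-coding genes. H3K27Ac was at 26 promoters (70.3%, 53.0 to 84.1), against 44.1% of all genes and 50.1% of protein-coding genes. MOF was at 14 promoters (37.8%, 22.5 to 55.2), against 23.7% and 26.6%. The lower bounds for the marks lay above both backgrounds, whereas the interval for MOF held both. This reading depended on the peaks used. With only peaks centred in the window, H3K4me3 was at 12 members (32.4%, 18.0 to 49.8) against 25.5% of all genes, H3K27Ac at 16 (43.2%, 27.1 to 60.5) against 26.2%, and MOF at 7 (18.9%) against 14.7%. In the stronger 50% of each list the shares were 59.5% against 45.3% for H3K4me3, 51.4% against 36.7% for H3K27Ac and 16.2% against 14.5% for MOF, each with an interval that held the share of all genes. In the wider 50% the interval held it for H3K27Ac (48.6%, 31.9 to 65.6, against 36.9%) but lay above it for MOF (13 members, 35.1%, 20.2 to 52.5, against 19.3%), as it did with GENCODE M21 transcripts, tried after the data were seen (16 members, 43.2%, 27.1 to 60.5, against 14.1%). The GENCODE background differed in make-up, with H3K4me3 at 31.0% of all its genes. A background of protein-coding GENCODE genes was not computed, and the RefSeq one for MOF was 26.6%. Rfx2 was at 0 of 37 promoters, which allows a share of up to 8.11% (3 counts of 37; the exact binomial bound is 9.49%), beside 1.21% of all genes and 1.41% of protein-coding genes. The Rfx2 peak closest to any member lay 40960 bp from the TSS of Dgat2, so the absence of Rfx2 did not hinge on the size of the promoter window.

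**Figure D1:**
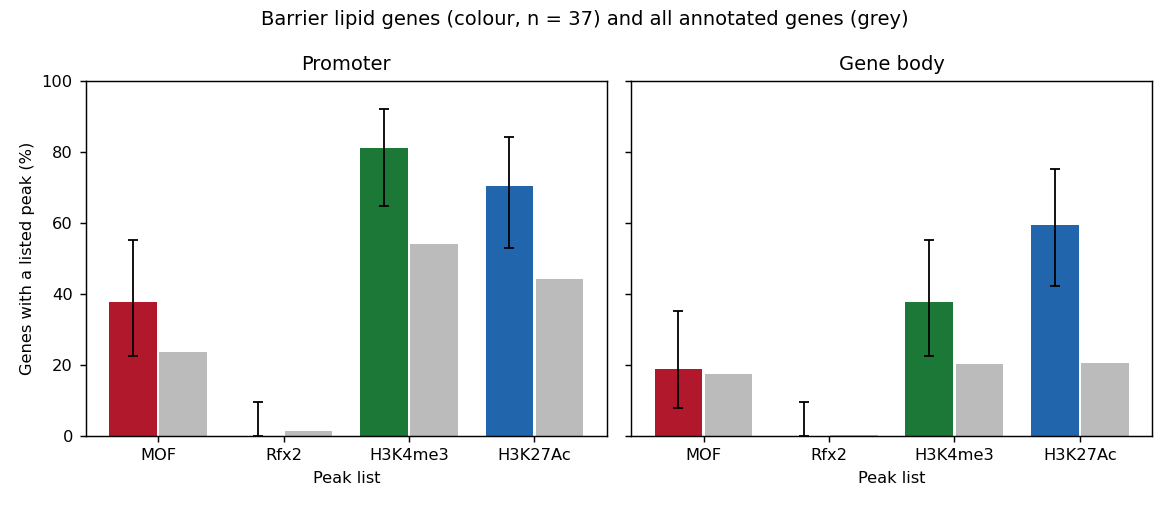
Share of genes with a listed peak (vertical axis, percent) at the promoter (left) and in the gene body (right) for each peak list, with the 37 barrier lipid genes in colour and all 26180 annotated genes in grey. Error bars are exact 95% binomial intervals for the 37 genes, and the bar that stands farthest from its grey neighbour is H3K27Ac in the gene body, at 59.5% against 20.5%.

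The marks mostly occurred together. Both were at 25 promoters (67.6%) against 43.1% of all genes, and of the 30 promoters with H3K4me3, 25 (83.3%) had H3K27Ac as well, against 79.8% of all genes with H3K4me3. All 14 MOF promoters carried H3K4me3, as did those of 5934 of the 6195 annotated genes with MOF at the promoter. Among promoters with H3K4me3, MOF was at 14 of 30 (46.7%, 28.3 to 65.7) against 42.0% over all such genes, and among promoters with both marks at 12 of 25 (48.0%) against 48.8%. The share of MOF among marked barrier lipid promoters was thus near the background. Few of the promoters were divergent: Elovl6 and Cers2 had a gene on the other strand starting within 1 kb (5.41%, against 11.9% of all genes), and the MOF and H3K4me3 peaks at these promoters were shared with those neighbours, Gm35986 and Anxa9.

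**Figure D2:**
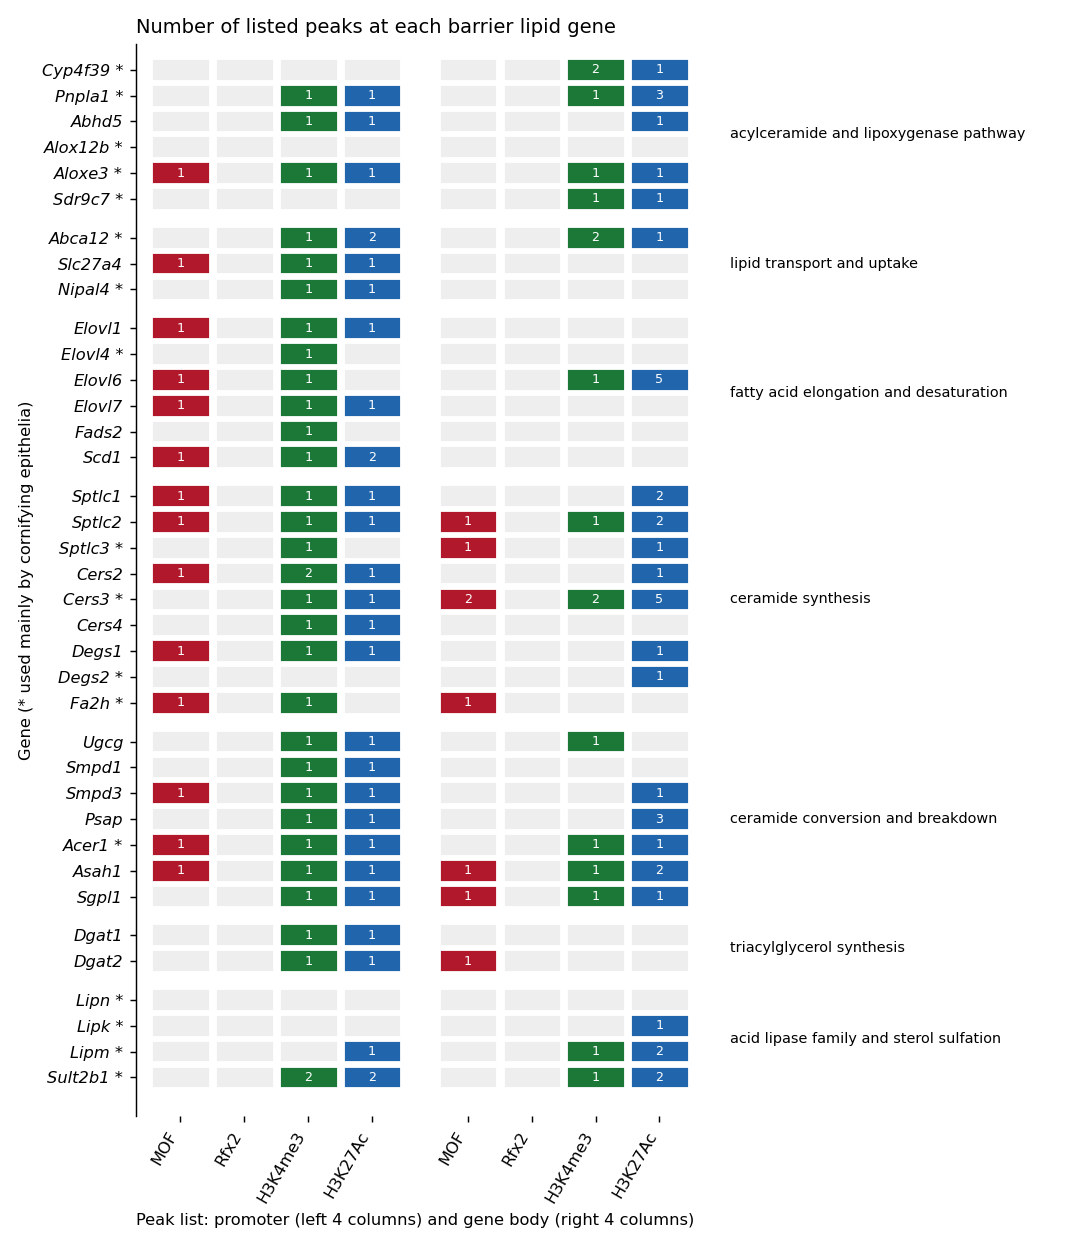
Number of listed peaks at each of the 37 genes (rows, grouped by role), with the left 4 columns for the promoter and the right 4 for the gene body. Grey cells hold no listed peak, and asterisks mark the 17 genes assigned to cornifying epithelia, among them all 6 genes with an empty promoter.

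All 20 genes that work in many tissues had H3K4me3 at the promoter and 18 had H3K27Ac, whereas of the 17 genes of cornifying epithelia 10 had H3K4me3 and 8 had H3K27Ac, shares near the 54.0% and 44.1% of all genes. The 6 promoters with no peak of any list (16.2%, against 44.1% of all genes) were Cyp4f39, Alox12b, Sdr9c7, Degs2, Lipn and Lipk, which belong to the latter group. MOF was at 11 of the 20 broadly used genes (55.0%, 31.5 to 76.9) and at 3 of the 17 others (17.6%), Aloxe3, Fa2h and Acer1, beside 23.7% of all genes. Read against H3K4me3, the MOF shares were 55.0% and 30.0% (3 of 10, 6.67 to 65.2), with intervals that overlapped and both held the 42.0% of all genes with H3K4me3. The split was written with earlier results of these data known, so it is a description of the members only.

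In the acylceramide and lipoxygenase pathway, 3 of 6 promoters had both marks, near the 43.1% of all genes. Pnpla1, the transacylase that makes acylceramide, had H3K4me3 at a fold enrichment of 6.46 and H3K27Ac at 5.34, in peaks of 428 and 460 bp that covered the TSS. Its cofactor Abhd5 had the broader H3K4me3 peak, 1486 bp at 7.42-fold, with H3K27Ac at 5.02. The promoter of Aloxe3, the epidermal lipoxygenase that acts on the product of Alox12b, was the only one of the group with MOF (score 530, chr11:69125328-69126077). This MOF peak ended 300 bp short of the TSS and lay over an H3K4me3 peak of 3.12-fold, the lowest among the 30 members and at percentile 1.52 of all genes with H3K4me3. Cyp4f39, the hydroxylase of ultra-long-chain fatty acids, Alox12b, which starts oxidation of the linoleate, and Sdr9c7, the dehydrogenase that follows Aloxe3, had no promoter peak.

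Cyp4f39 and Sdr9c7 were not empty throughout, unlike Alox12b. Inside Aloxe3, 7.9 kb downstream of the TSS, stood an H3K4me3 peak of 14.9-fold (chr11:69133791-69134768) with H3K27Ac of 5.47-fold over it. This site was far higher in H3K4me3 than the annotated promoter of the same gene. A further H3K4me3 peak of 11.2-fold lay in the interval between Aloxe3 and Alox12b. This peak was the H3K4me3 peak nearest to the TSS of Alox12b and ended 5804 bp before it. No peak of any list lay in the gene body of Alox12b. Sdr9c7 showed both marks in an intron 6.5 kb downstream of its unmarked TSS, H3K4me3 at 8.26-fold (chr10:127904755-127905364) and H3K27Ac at 7.73-fold. Cyp4f39 had H3K4me3 of 8.71-fold at 39.8 kb, close to the end of the gene, and Pnpla1 had both marks together near 16.9 kb.

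The 3 lipid transport genes had both marks, as did 43.1% of all genes. Abca12, the transporter that loads lamellar bodies, had H3K4me3 of 5.88-fold and a pair of H3K27Ac peaks of 4.59- and 3.95-fold. Nipal4, a membrane protein mutated in ichthyosis, had H3K4me3 of 7.0-fold and the lowest H3K27Ac of the members, 3.18-fold. Slc27a4, a fatty acid transport protein and acyl-CoA synthetase, had MOF (score 687, 2043 bp wide) with H3K4me3 of 12.0-fold, at percentile 90.5 of all genes with the mark.

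Fatty acid elongation and desaturation had MOF at 4 of 6 promoters, H3K4me3 at all 6 and H3K27Ac at 3, beside 23.7%, 54.0% and 44.1% of all genes. Elovl1, which elongates saturated chains, had MOF with a score of 412, H3K4me3 of 8.29-fold and H3K27Ac of 4.5-fold. Elovl7 had a MOF score of 523 with 6.39-fold and 4.84-fold, and the stearoyl-CoA desaturase gene Scd1 had a MOF score of 736 in a peak of only 243 bp. Elovl6 carried MOF (542) and an H3K4me3 peak of 2375 bp, at percentile 95.5 for width, without H3K27Ac at the promoter; the nearest H3K27Ac peak began 1116 bp from its TSS, inside the gene. Elovl4, which makes the ultra-long chains of acylceramide, and Fads2, a desaturase of polyunsaturated fatty acids, had H3K4me3 alone, at 6.49-fold and 7.6-fold.

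Ceramide synthesis held paralogs that differed in their listed peaks. Sptlc1 and Sptlc2, which form the common serine palmitoyltransferase, had MOF (677 and 357), H3K4me3 (12.8- and 6.58-fold) and H3K27Ac (7.51- and 6.24-fold). Sptlc3, the alternative catalytic subunit, had H3K4me3 of 8.89-fold beginning 16 bp after its TSS, and neither MOF nor H3K27Ac at the promoter. Of the desaturases, Degs1 had MOF (388), H3K4me3 (6.75-fold) and H3K27Ac (6.25-fold), whereas Degs2, which also hydroxylates to give phytoceramide, had no peak of the 4 lists at the promoter. Their ratios of observed to expected CpG were alike, as given below, although the printed Degs2 stretch holds 12 CG and that of Degs1 holds 6. Among ceramide synthases, Cers2, the enzyme for very long chains, had the widest MOF peak of the members (2831 bp, score 537) with H3K4me3 of 7.66-fold and H3K27Ac of 6.98-fold. Cers3, the enzyme for ultra-long chains, and Cers4 had H3K4me3 of 9.88- and 8.37-fold and H3K27Ac of 7.14- and 4.63-fold without MOF at the promoter. Fa2h, the fatty acid hydroxylase, was the reverse: it had the highest MOF score of the 14 (1120, percentile 88.4) over an H3K4me3 peak of 4.51-fold and 333 bp, with no H3K27Ac.

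All 7 genes of ceramide conversion and breakdown had both marks, beside 43.1% of all genes. The acid sphingomyelinase gene Smpd1 held the highest H3K4me3 of the members, 14.5-fold (percentile 98.2), and the highest H3K27Ac, 9.35-fold, with no MOF. The neutral sphingomyelinase gene Smpd3 had H3K4me3 of 13.4-fold and MOF with a score of 777 over 2315 bp. Height of H3K4me3 thus did not go with MOF in this pair. The epidermal alkaline ceramidase gene Acer1 and the acid ceramidase gene Asah1 both had MOF (505 and 660), over H3K4me3 of 4.96-fold and 310 bp for Acer1 and 9.24-fold and 1409 bp for Asah1. Ugcg, which makes glucosylceramide, Psap, the precursor of the saposins, and Sgpl1, which cleaves sphingosine phosphate, had both marks without MOF at the promoter, with H3K4me3 of 4.94-, 6.98- and 5.57-fold. A higher H3K4me3 peak of Ugcg, 9.91-fold and centred 0.54 kb after the TSS, lay just outside the promoter window and was counted in the gene body.

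The triacylglycerol synthases Dgat1 and Dgat2 had H3K4me3 of 8.35- and 13.5-fold and H3K27Ac of 6.39- and 8.39-fold. Neither had MOF at the promoter; a MOF peak of 260 bp lay 2.53 kb inside Dgat2. With GENCODE M21 transcripts Dgat2 and Sgpl1 had MOF at a promoter and Cyp4f39 had H3K4me3 at one. In the last group Sult2b1, the cholesterol sulfotransferase, had both marks at each of its 2 TSSs, with H3K4me3 of 9.68- and 8.29-fold. The acid lipase genes Lipk, Lipn and Lipm, which lie next to each other and are read in the same direction, differed from it. Lipm had H3K27Ac of 3.55-fold at the promoter, and its H3K4me3 peak of 6.25-fold began 198 bp after the TSS, outside the promoter window. Lipk and Lipn had no promoter peak. Across the neighbourhood of these lipases, from 10 kb before Lipk to 10 kb after Lipm, 8 H3K27Ac peaks, 1 H3K4me3 peak and no MOF or Rfx2 peak were listed. The highest H3K27Ac among them, 7.3-fold, lay in Lipk at 13.59 kb, and 3 lay between Lipk and Lipn.

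**Figure D3:**
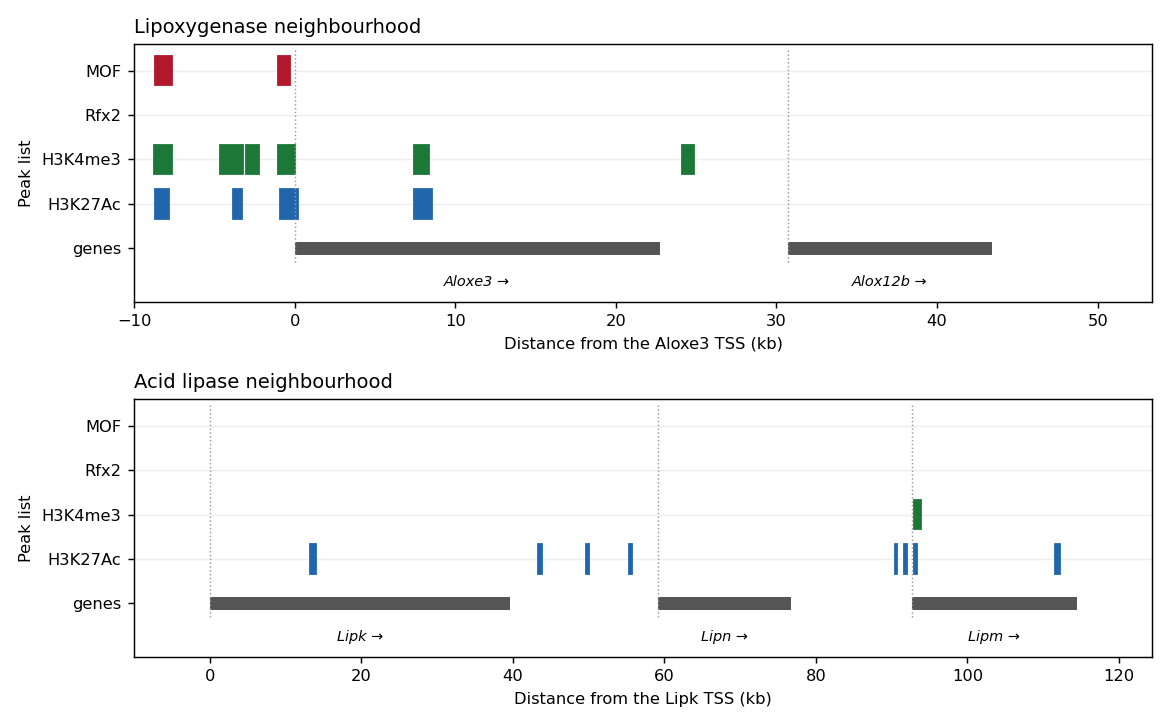
Listed peaks around Aloxe3 and Alox12b (top) and around Lipk, Lipn and Lipm (bottom), by distance in kb from the TSS of Aloxe3 and of Lipk. Boxes are peaks drawn to their width, grey bars are the members only, dotted lines are their TSSs, and arrows give the direction of transcription; the H3K4me3 site of 14.9-fold is the one 7.9 kb into Aloxe3, and no peak stands at the TSS of Alox12b, Lipk or Lipn.

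To compare heights, each member was set against all genes with a peak of the same list. The median H3K4me3 fold enrichment was 7.51 over the 30 members (3.12 to 14.5) and 8.04 over all such genes, and the median width was 1126 bp against 1306 bp. H3K27Ac had a median of 5.57 over 26 members (3.18 to 9.35) against 6.72. The MOF peaks of the 14 members had a median score of 540 against 656, but a median width of 1222 bp against 1008 bp. By use, H3K4me3 had a median of 6.48 and 869 bp in the 10 marked genes of cornifying epithelia, which ran from 3.12 to 9.88, and of 7.98 and 1327 bp in the 20 others, which ran from 4.94 to 14.5. The ranges overlapped widely. With MOF at the promoter the median H3K4me3 was 7.21 (14 genes), and without it 7.51 (16 genes), against 8.06 and 8.02 over all genes. For H3K27Ac the medians were 6.25 with MOF (12 genes) and 5.18 without it (14 genes), against 7.18 and 6.24.

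**Figure D4:**
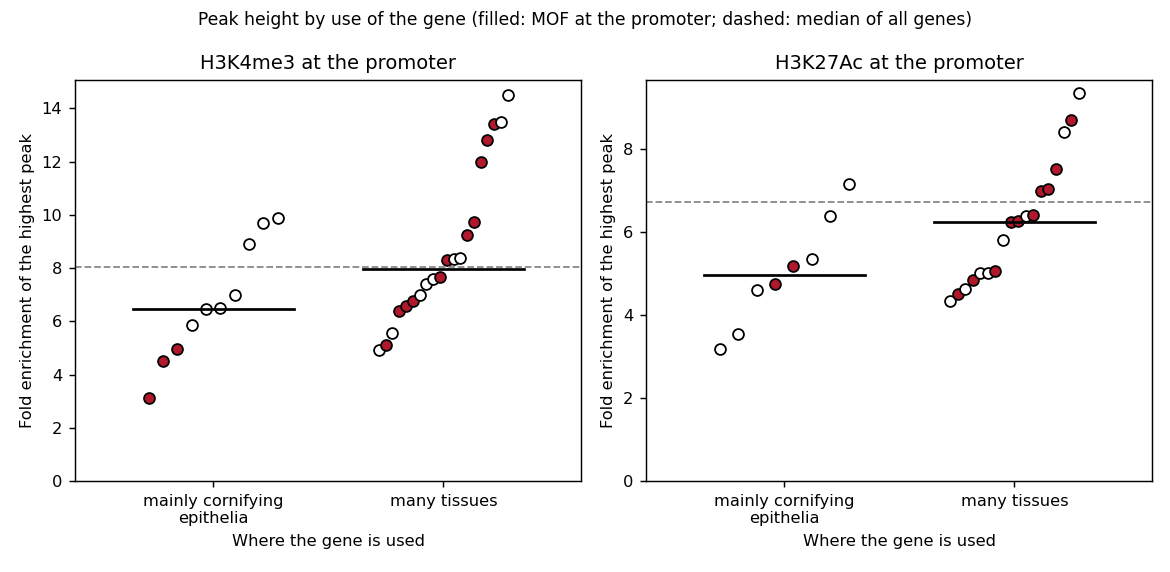
Fold enrichment (vertical axis, no unit) of the highest H3K4me3 (left) and H3K27Ac (right) promoter peak of each member, by use of the gene, with black bars for group medians and dashed lines for the median of all genes with such a peak (8.04 and 6.72). Filled points have MOF at the promoter, and they lie among the lowest points for cornifying epithelia in H3K4me3 and throughout the range for many tissues.

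Gene bodies were read next, since enhancers often lie in introns. H3K27Ac was in the body of 22 members (59.5%, 42.1 to 75.2), against 20.5% of all genes, and H3K4me3 in 14 (37.8%) against 20.3%. MOF was in 7 (18.9%), against 17.5%, and Rfx2 in 0 (up to 8.11% by 3 counts of 37), against 0.183%. The members are longer than most genes, with a median of 29.6 kb against 13.5 kb, so peaks were also counted per length. H3K27Ac came to 2.62 peaks per 100 kb of gene in the members against 1.12 over all genes. Among genes with H3K4me3 at the promoter it was 2.48 in the members against 1.41. Among genes of 10 to 100 kb it was 2.9 per 100 kb (17 of 29 members) against 1.44. H3K4me3 came to 1.14 against 0.807, but among genes with H3K4me3 at the promoter to 0.978 in the members against 0.908. MOF came to 0.537 against 0.627. In the stronger 50% of each list, H3K27Ac was in the body of 6 members (16.2%, 6.19 to 32.0) against 10.2% of all genes, and H3K4me3 in 3 (8.11%) against 8.09%. In H3K27Ac the density was 2.62 per 100 kb in both use groups, while H3K4me3 came to 1.57 in the genes of cornifying epithelia and 0.689 in the others.

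Of the 39 H3K27Ac peaks in member gene bodies, 35 were centred in introns (89.7%, against 90.3% of such peaks over all genes), 17 overlapped H3K4me3 (43.6%, against 42.6%) and 21 overlapped no other list (53.8%, against 53.9%), all near the background. Within 2.5 kb of the most upstream TSS lay 10 (25.6%, against 15.7%). Cers3 and Elovl6 held 5 each, the most of any member. In Cers3 the 5 peaks ran from 27.42 to 69.89 kb into the gene, and those at 27.42 and 46.91 kb, of 6.99- and 7.12-fold, were as high as the promoter peak of 7.14-fold. MOF lay over both of these intronic sites, with scores of 294 and 587, although it was not at the Cers3 promoter. They were the only sites of the 8 MOF peaks in member gene bodies that overlapped another list. The other 6, in Sptlc2, Sptlc3, Fa2h, Asah1, Sgpl1 and Dgat2, stood alone (75.0%, against 71.7% of MOF peaks in the bodies of all genes). Degs2 and Lipk, which had empty promoters, held 1 H3K27Ac peak each, of 4.13-fold at 15.36 kb and of 7.3-fold.

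The members also differed in promoter sequence, which the rule did not use. RefSeq promoter sequences of 300 bases, from 250 before the TSS to 50 after, were at hand for 29 members and 19528 genes; Lipk, Scd1, Smpd3, Dgat2, Fa2h, Asah1, Aloxe3 and Dgat1 were not among them. The ratio of observed to expected CpG had a median of 0.548 in the 29 members and 0.551 in all genes, but 0.341 in 14 genes of cornifying epithelia (0.0958 to 0.926) and 0.731 in 15 genes of many tissues (0.46 to 1.08). Within families, Sptlc1 and Sptlc2 had 0.885 and 0.762 and Sptlc3 0.0958, and Cers2 had 0.711, Cers4 0.46 and Cers3 0.364. The elongase genes ran the other way, with 0.926 for Elovl4, which had no MOF, and 0.534, 0.61 and 0.731 for Elovl1, Elovl6 and Elovl7, which had it. The desaturases had like values: the ratio was 0.618 for Degs1, with MOF and both marks, read at its downstream intronic TSS, and 0.621 for Degs2, with no listed promoter peak. Acer1 had MOF at a ratio of 0.188.

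Set by CpG class, members with a ratio over 0.6 had H3K4me3 at 13 of 14 promoters (92.9%), against 92.0% of all genes in that class, and MOF at 6 of the 13 (46.2%), against 47.6%. Members with a ratio of 0.6 or less had H3K4me3 at 10 of 15 (66.7%), against 26.2% of all genes in the class, and MOF at 3 of the 10 (30.0%), against 31.1%. In both classes the MOF share among marked promoters was near that of all genes. Scd1, Smpd3, Fa2h, Asah1 and Aloxe3, which had MOF and H3K4me3, had no sequence at hand and are in neither class. The same holds for Dgat1 and Dgat2, which had H3K4me3 without MOF. In the class with more CpG almost all genes had H3K4me3, which leaves little room for a difference. The 10 marked members of the class with less CpG were Pnpla1, Abca12, Slc27a4, Elovl1, Sptlc3, Cers3, Cers4, Smpd1, Acer1 and Sult2b1.

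**Figure D5:**
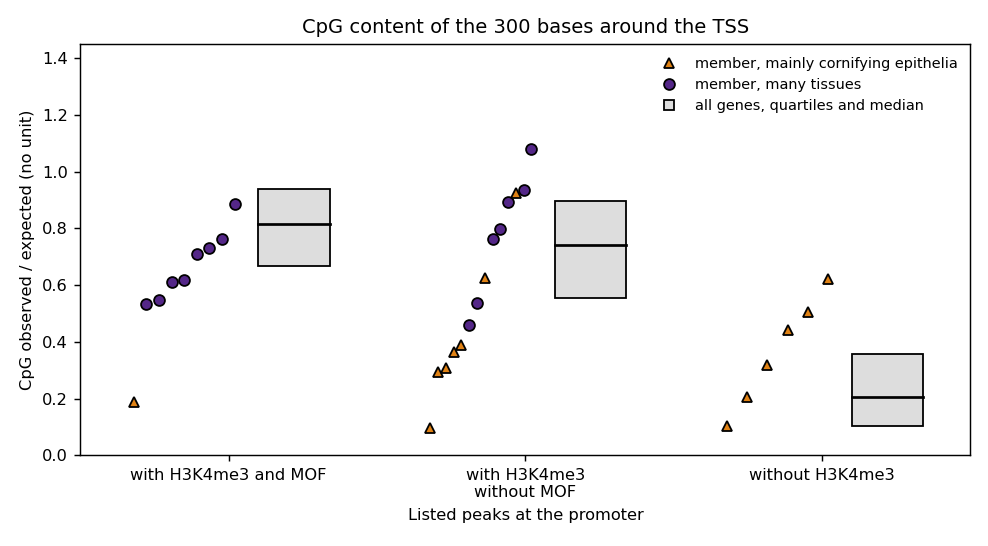
Ratio of observed to expected CpG (vertical axis, no unit) in the 300 bases around the TSS of 29 members, by the listed promoter peaks, with triangles for genes of cornifying epithelia and circles for genes of many tissues. Grey boxes span the quartiles of all genes in the same class with the median as a line (0.814, 0.742 and 0.206 from left to right), and several members with H3K4me3 lie below the box of their class.

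Motifs were searched on both strands of the same 300 bases, each as a match of letters only. The GC box GGGCGG was in 17 of 29 members (58.6%, against 45.0% of all promoters), in 13 of 15 genes of many tissues and 4 of 14 of cornifying epithelia. Its interval (38.9 to 76.5) held the background, but from 1000 bases before to 100 after the TSS it was in 23 (79.3%, 60.3 to 92.0, against 54.6%), with an interval above it. Among promoters with H3K4me3, the longer window held the GC box in 77.8% of members with MOF and 78.6% of those without it. Over all such genes the shares were 79.7% and 77.8%, near those of the members. The inverted CCAAT box ATTGG was in 9 (31.0%, against 39.2%), the AP-1 letters TGANTCA in 2, Psap and Lipn (6.9%, against 7.44%), and TATAAA in 1, Sdr9c7 (3.45%, against 13.0%). The sterol regulatory element and the X-box were in 0 of 29, against 0.261% and 1.68%. Widened to 1000 bases before and 100 after the TSS, an X-box match was found in Pnpla1, whose nearest Rfx2 peak was 1717907 bp away.

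For the rest of the pathway, 70 further genes of ceramide, fatty acid, sterol and triacylglycerol metabolism were read in the same way, from a list written with earlier results known. MOF was at 27 (38.6%, against 23.7% of all genes), H3K4me3 at 59 and H3K27Ac at 53 (54.0% and 44.1% of all genes), and Rfx2 at 1 (1.21% of all genes). The gene with Rfx2 was Hmgcs1, the synthase at the start of sterol synthesis, which also had MOF (score 1447). MOF was at 27 of the 59 with H3K4me3 (45.8%, 32.7 to 59.2), beside 46.7% of the members and 42.0% of all genes with H3K4me3. By group it was at 13 of 24 marked genes of ceramide and sphingomyelin metabolism, 4 of 13 of fatty acid synthesis, 6 of 12 of sterol synthesis and 4 of 10 of triacylglycerol and lamellar body genes. The ceramide synthase genes Cers5 and Cers6 had MOF (scores 1236 and 642), as did the ceramidase gene Acer3 (1428) and the acyl-CoA synthetase gene Acsl1 (638). Among the 11 without H3K4me3 were Acaca and Acacb, the acetyl-CoA carboxylases, and Elovl3, Asah2, Hacd4, Lipf, Mogat1, Mogat2, Scd3 and Sgpp2.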

How the data were processed

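Alignment and peak calling were performed by the authors, per the labels and methods with Bowtie2 to mm10 and MACS2 on each library. MOF reads were single-end and the Cut&Run reads were paired-end; no control library is named in the sources used here. The deposited Rfx2, H3K4me3 and H3K27Ac lists give a fold enrichment and a −log10 p-value and −log10 q-value for each peak. The deposited MOF list gives only a score of unstated scale. It has 17546 peaks, more than the authors counted, so it may be another call. The lists hold 337 Rfx2, 27039 H3K4me3 and 30736 H3K27Ac peaks and give no reads. The study states read totals per library, which were not used here, and heights were compared only within a list.

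TSSs were those of curated RefSeq transcripts of GRCm38.p6, the assembly named mm10. A peak was assigned to a promoter or gene body on an overlap of 1 bp; a body peak touched no promoter window of its own gene. The height at a promoter is that of the highest peak. All 37 members, genes sharing their promoter peaks, markers, and up to 10 other pathway genes of each kind were named; others were chosen after their values were seen. Members and gene lists were chosen with earlier results of these data known. Python 3.11.15, pandas 2.3.3 and scipy 1.17.1 were used. The overlap steps were tested on simulated data against bedtools 2.31.1 (0 of 16466 pairs differed). Other windows, annotations and subsets of the lists were tried.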

Additional observations from a re-analysis of the deposited data

How the results depend on the processing

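No paired analysis was possible because only 1 list per antibody was used. Of 69 alternative values for 19 results, 50 stayed within 1.5 times the reported count and 19 did not. Shares of all genes under the same setting follow each count of members. With only peaks centred in the promoter, MOF was at 7 members (14.7% of all genes), H3K4me3 at 12 (25.5%) and H3K27Ac at 16 (26.2%), MOF was at 4 of the 12 with H3K4me3 (34.2%), and 17 promoters were empty (61.2%). In the stronger 50% of each list, MOF was at 6 promoters (14.5%), 5 of them among the 22 with H3K4me3 (29.9%), and 12 promoters were empty (52.1%). In gene bodies it left MOF in 3 members (9.38%), H3K4me3 in 3 (8.09%) and H3K27Ac in 6 (10.2%), so that the H3K4me3 share of members, 8.11%, was near that of all genes. In the wider 50%, gene bodies held MOF in 1 member (8.38%), H3K4me3 in 4 (8.1%) and H3K27Ac in 13 (10.5%). These alternatives use fewer peaks by construction. From 1000 bases before to 100 after the TSS, a CpG ratio over 0.6 was found in 9 members (29.1%), a TATA box in 9 (46.2%), a GC box in 23 (54.6%), an AP-1 match in 11 (25.5%), an inverted CCAAT box in 25 (78.4%) and an X-box in 1 (2.83%). GENCODE M21 transcripts, tried after the data were seen, gave MOF at 16 promoters (43.2%, 27.1 to 60.5) against 14.1% of all GENCODE genes, an interval that no longer held the background. This background counted all GENCODE genes, of which 67.0% had no listed promoter peak, against 44.1% of the RefSeq genes. Among promoters with H3K4me3 the MOF share was then 51.6% against 41.9%. With 2.5 kb on either side of the TSS, MOF was also at 16 members, against 27.8%, which its interval held. The lists keep no reads, so what depth limited could not be read from them.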
